A study of Mus musculus with 30 samples.

Results

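Transforming growth factor beta (TGF-beta) signalling was followed through 10 of the 55416 genes counted in mouse fracture callus, chosen by name for their place in the pathway. They are the ligand genes Tgfb1, Tgfb2 and Tgfb3, the receptor genes Tgfbr1, Tgfbr2 and Tgfbr3, the genes of the latent TGF-beta binding proteins Ltbp1, Ltbp2 and Ltbp3, and Lrrc32, which codes for GARP. All 10 symbols matched 1 gene ID each, all 10 had counts in each of the 30 samples, and all 10 passed the filter on low counts in every fit. The lowest count of any of them in a sample was 444, for Lrrc32.

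The study asked how the loss of Apex1, which codes for a DNA repair and redox protein, alters the healing of a closed tibial fracture without fixation. Total RNA of the callus of 1 mouse made up each library, at 3, 6, 10 or 14 days post fracture (dpf). The paper describes the 3-dpf tissue as tibia cut out around the fracture and the 6-dpf tissue as whole callus. Any difference in the tissue taken cannot be told apart from the time step between them. P-Apex1KO mice carry Prrx1-Cre and Apex1 C/C, floxed alleles that Cre removes in limb bud mesenchyme and the cells derived from it, so callus cells of other origin retain Apex1. WT denotes control littermates, which include Apex1 C/C and Apex1 C/+ mice without Cre and Prrx1-Cre;Apex1 C/+ mice, in which 1 allele is lost in the same cells. At 3-dpf there were 4 WT mice (2 females, 2 males) and 4 P-Apex1KO mice (1 female, 3 males). The 6-dpf groups held 5 WT mice (3 females, 2 males) and 3 P-Apex1KO mice (1 female, 2 males), and the 10-dpf groups held 4 WT mice (2 females, 2 males) and 3 P-Apex1KO mice (1 female, 2 males). The 14-dpf WT group held 4 mice (1 female, 3 males), and its 3 P-Apex1KO counterparts were all female. Between 18334389 and 43111491 reads were assigned to genes in a library (median 25573476). Levels are normalized counts (CPM, edgeR, TMM scaling over the 30 libraries), SE denotes the standard error of a log2 fold change, and the number of mice, not the depth, limits the precision for these genes.

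As background, TGF-beta is made as a precursor whose propeptide stays wrapped around the mature ligand and holds it latent. Latent binding proteins tie this complex to the extracellular matrix, GARP holds it on the surface of regulatory T cells, platelets and endothelial cells, and integrins, proteases or acid set the ligand free. The free ligand binds the type II receptor, which recruits and phosphorylates the type I receptor, and SMAD proteins carry the signal to the nucleus. Bone matrix is a large store of latent TGF-beta, which osteoclasts release and activate when they resorb bone, and the signal steers chondrocytes and bone-forming cells during repair.

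Apex1 itself (ENSMUSG00000035960, chromosome 14 of GRCm39 from 51162177 to 51164642) was at 29.97, 26.4, 33.1 and 31.7 CPM in WT at 3-dpf and at 18.4, 29.0, 27.6 and 34.5 CPM in the libraries labelled P-Apex1KO, in the order of their replicate numbers. Replicate 4 of the latter exceeded every WT library of that time point, so 3-dpf libraries are named here by their labels. At 6-dpf the WT mice had 20.7, 25.2, 25.3, 28.9 and 20.8 CPM and the P-Apex1KO mice 15.1, 15.2 and 15.8 CPM, with no overlap. At 10-dpf WT mice had 23.3, 16.9, 27.1 and 27.5 CPM against 14.0, 16.8 and 15.6 CPM, and at 14-dpf 19.8, 27.2, 22.9 and 26.2 CPM against 15.1, 18.6 and 14.2 CPM, again without overlap. The log2 fold change of P-Apex1KO against WT by edgeR's quasi-likelihood test was -0.15 at 3-dpf (Benjamini-Hochberg adjusted p = 0.927), -0.67 at 6-dpf (adjusted p = 0.0071), -0.65 at 10-dpf (adjusted p = 0.0278) and -0.29 at 14-dpf (adjusted p = 0.367). The 10-dpf call passed in 3 of the 7 fits that left out a mouse (adjusted p up to 0.104), and not without sex (-0.60) or with a replicate block in its place (-0.50). At 14-dpf Apex1 passed without sex (-0.55) and with the replicate block (-0.52) and in no other fit, and its value ran up to -0.01 with scaling by library size alone.

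The labelled tissue was checked against markers of 4 cell types that build callus. The 7 cartilage markers, led by Col2a1, summed to 30655 to 54730 CPM in WT at 6-dpf, and Matn1 was the 1 marker of all lists with samples at 0, in 3 of the 4 WT mice at 3-dpf. The 4 markers of hypertrophic chondrocytes, led by Col10a1, reached 13475 to 16739 CPM in WT at 10-dpf, and the 6 osteoblast markers, led by Ibsp, 6226 to 7018 CPM. The 6 osteoclast markers, led by Ctsk, reached 7241 to 8299 CPM in WT at 14-dpf. In bulk tissue, fewer cells of a type and less RNA per cell cannot be told apart, for any gene described here.

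Over the 10 genes, edgeR's test of genotype with sex in the model found 0 past an adjusted p of 0.05 at 3-dpf, where it called 0% of the 19866 genes tested. Over all genes there, 1216 had an unadjusted p under 0.05 and DESeq2 called 82 higher and 3 lower. One of the 10, Lrrc32, had an unadjusted p under 0.05 there and passed by DESeq2. At 6-dpf 1 of 10 passed, higher in P-Apex1KO, where 10.9% of 20260 genes did so in either direction (5.61% lower and 5.31% higher). At 10-dpf 2 of 10 passed, 1 in each direction, against 6.46% of 18910 genes (3.44% lower and 3.01% higher). At 14-dpf 4 of 10 passed, 3 lower and 1 higher, against 11.3% of 20228 genes (7.04% lower and 4.28% higher). The same 4 passed without sex and with a sex effect shared by 10- and 14-dpf, where far more genes passed: 37.2% of 18410 and 30.1% of 19705. With all 30 samples in 1 model 6 of 10 passed, against 29.98% of 20642 genes, so the share that 4 of 10 is set against depends on the fit. Leaving out each mouse in turn gave 2 to 6 of 10 at 14-dpf. At the 4 time points the median change of the 10 was -0.04, 0.11, 0.06 and -0.37 (log2), where the median of all genes tested was -0.0028, 0.01, -0.0031 and 0.04. These shares of all genes are the background against which each count is to be read, and the counts at 3-, 6- and 10-dpf amount to at most 2 genes.

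**Figure D1:**
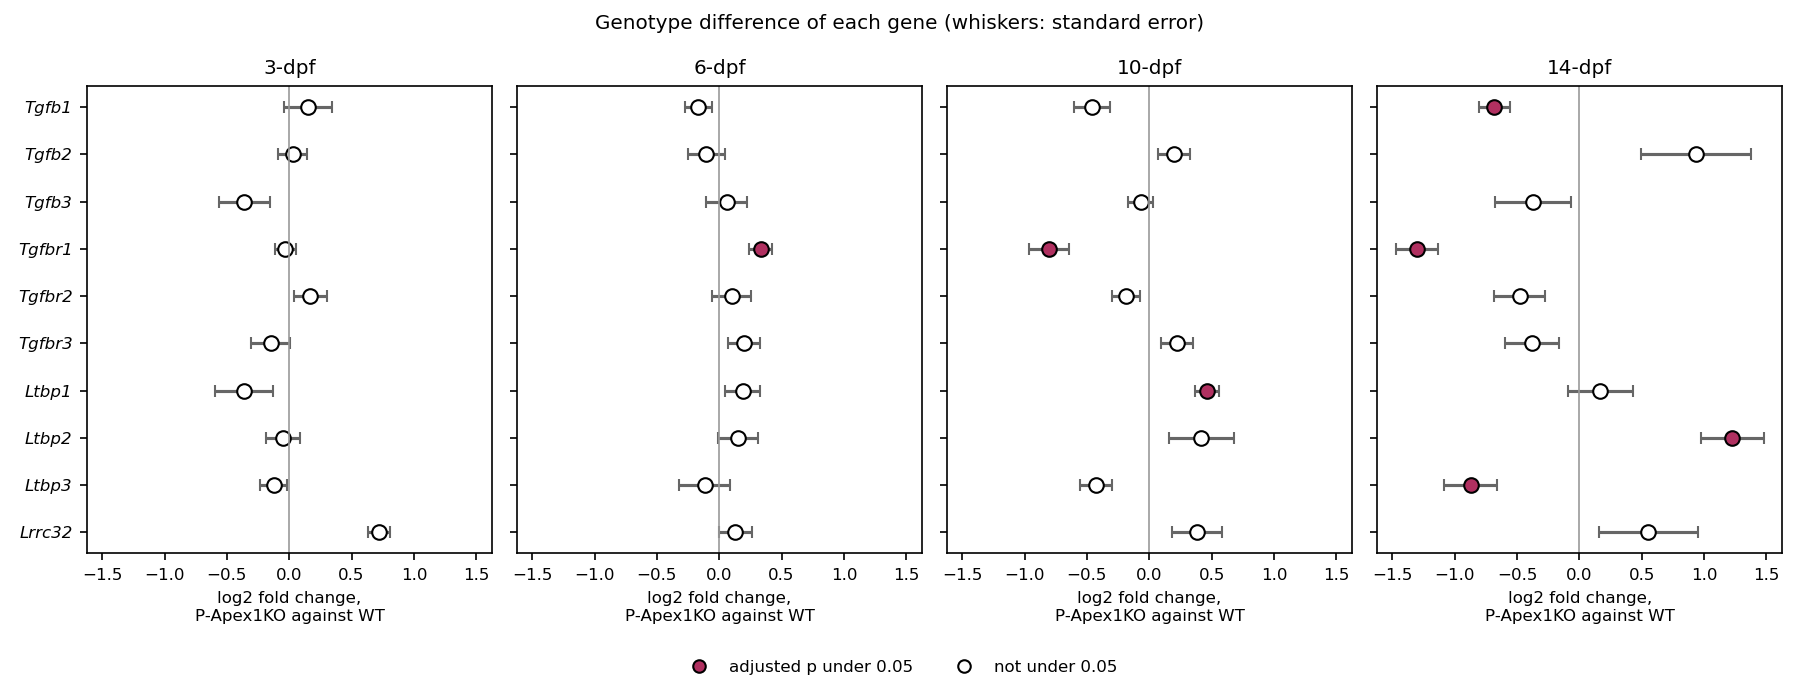
Log2 fold change of P-Apex1KO against WT (horizontal axis) with its standard error for each of the 10 genes at 3-, 6-, 10- and 14-dpf; filled points have an edgeR adjusted p under 0.05. Tgfbr1 lies at 0.33 at 6-dpf, -0.80 at 10-dpf and -1.31 at 14-dpf, and Ltbp2 at 1.23 at 14-dpf.

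Groups did not overlap in CPM for 1 of the 10 genes at 3-dpf (Lrrc32, higher), where 3.66% of the genes tested did not overlap in either direction, and for 1 at 6-dpf (Tgfbr1, higher), against 20.6%. At 10-dpf the count was 4 (Tgfb1, Tgfbr1 and Ltbp3 lower, Ltbp1 higher), against 19.3%. At 14-dpf it was 5 (Tgfb1, Tgfbr1 and Ltbp3 lower, Ltbp2 and Lrrc32 higher), against 42%. With all 3 P-Apex1KO mice female at 14-dpf and 1 WT female, the genotype contrast with sex in the model rests on that WT mouse, replicate 1. Values of a fit without sex, and of a fit of 10- and 14-dpf together in which the sex effect is shared, are therefore given for the 10 genes at 14-dpf; the latter fit was chosen after the data were seen. Values at 14-dpf for named genes of other lists are with sex in the model, and in the other 2 fits each kept its direction.

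Of the ligands, Tgfb1 (ENSMUSG00000002603, chromosome 7 from 25386390 to 25404506) codes for the isoform that platelets and bone matrix hold in large amounts. At 14-dpf the WT mice had 183, 200, 183 and 213 CPM of it and the P-Apex1KO mice 110, 121 and 106 CPM. Every WT mouse lay above every P-Apex1KO mouse, by a gap larger than the range within either group. Tgfb1 thus differed by -0.68 on the log2 scale (SE 0.12, edgeR adjusted p = 0.0137), with -0.76 without sex (adjusted p = 0.000371) and -0.93 with the shared sex effect (adjusted p = 0.00123). Scaled by library size alone it was -0.41 and no longer passed (adjusted p = 0.0881), while the median of all genes then lay at 0.31. At 10-dpf the levels were 159, 185, 132 and 143 CPM in WT and 125, 120 and 77.6 CPM in P-Apex1KO. The groups again did not overlap, but the difference of -0.46 did not pass by edgeR (adjusted p = 0.101). It passed by DESeq2 (adjusted p = 0.0334), with all 30 samples in 1 model (-0.51, 0.0497) and with a replicate block in place of sex (-0.57, 0.0318). At 3- and 6-dpf the groups overlapped, with adjusted p of 0.928 and 0.367.

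Tgfb2 (ENSMUSG00000039239, chromosome 1 from 186354985 to 186438294), an isoform known for its part in heart, skeletal and eye development, passed at no time point between genotypes in the fit of each time point. It was at 32.0, 45.3, 44.6 and 42.0 CPM in WT at 14-dpf and at 73.9, 32.2 and 74.9 CPM in P-Apex1KO. Replicate 2 of the P-Apex1KO mice lay within the WT range and the others above it, with a log2 fold change of 0.94 (SE 0.44, edgeR adjusted p = 0.223). It was 0.60 without sex and 0.79 with the shared sex effect, neither past the threshold. With all 30 samples in 1 model Tgfb2 did pass (0.71, adjusted p = 0.0209), as it did without P-Apex1KO replicate 2 (1.24, adjusted p = 0.000328). The call for Tgfb2 at 14-dpf therefore depends on the fit. Between time points Tgfb2 did change within a genotype: in WT it rose from 3- to 6-dpf by a log2 fold change of 0.63 (SE 0.15, edgeR adjusted p = 0.00507). From 10- to 14-dpf in WT it fell by 0.94 on the log2 scale (SE 0.23, adjusted p = 0.0218). This fall did not pass without WT replicate 4 of 14-dpf, and some other fits also called fewer of the genes in this step.

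Tgfb3 (ENSMUSG00000021253, chromosome 12 from 86102756 to 86126301), an isoform needed for closure of the palate, also passed at no time point between genotypes. Its log2 fold changes ran from -0.37 at 14-dpf (adjusted p = 0.474) to 0.06 at 6-dpf (adjusted p = 0.876). The 14-dpf value was -0.14 without sex and -0.13 with the shared sex effect. At 3-dpf the libraries labelled P-Apex1KO had 83.3, 87.5, 186 and 85.4 CPM against 158, 154, 134 and 135 CPM in WT. Replicate 3, the female of that group, exceeded every WT library and the 3 males lay below every WT library. The WT females of 3-dpf had 154 and 134 CPM and the WT males 158 and 135 CPM.

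As shares of the summed ligand level per kb of exon, Tgfb1 made up 54.8% ± 4.03 (SD, n = 4) in WT at 14-dpf and 42.1% ± 10.6 (SD, n = 3) in P-Apex1KO. Tgfb3 held 35.9% ± 4.79 and 40.5% ± 6.24, and Tgfb2 9.36% ± 1.42 and 17.4% ± 4.96, with the same numbers of mice. The share of Tgfb2 was from 7.27 to 10.4% in the WT mice and from 11.7 to 21.0% in the P-Apex1KO mice, without overlap and without a test. In CPM the levels of Tgfb2 did overlap there. The share also depends on Tgfb1, which was lower in P-Apex1KO. In WT at 3-dpf the shares were 43.4% for Tgfb1, 10.2% for Tgfb2 and 46.5% for Tgfb3.

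**Figure D2:**
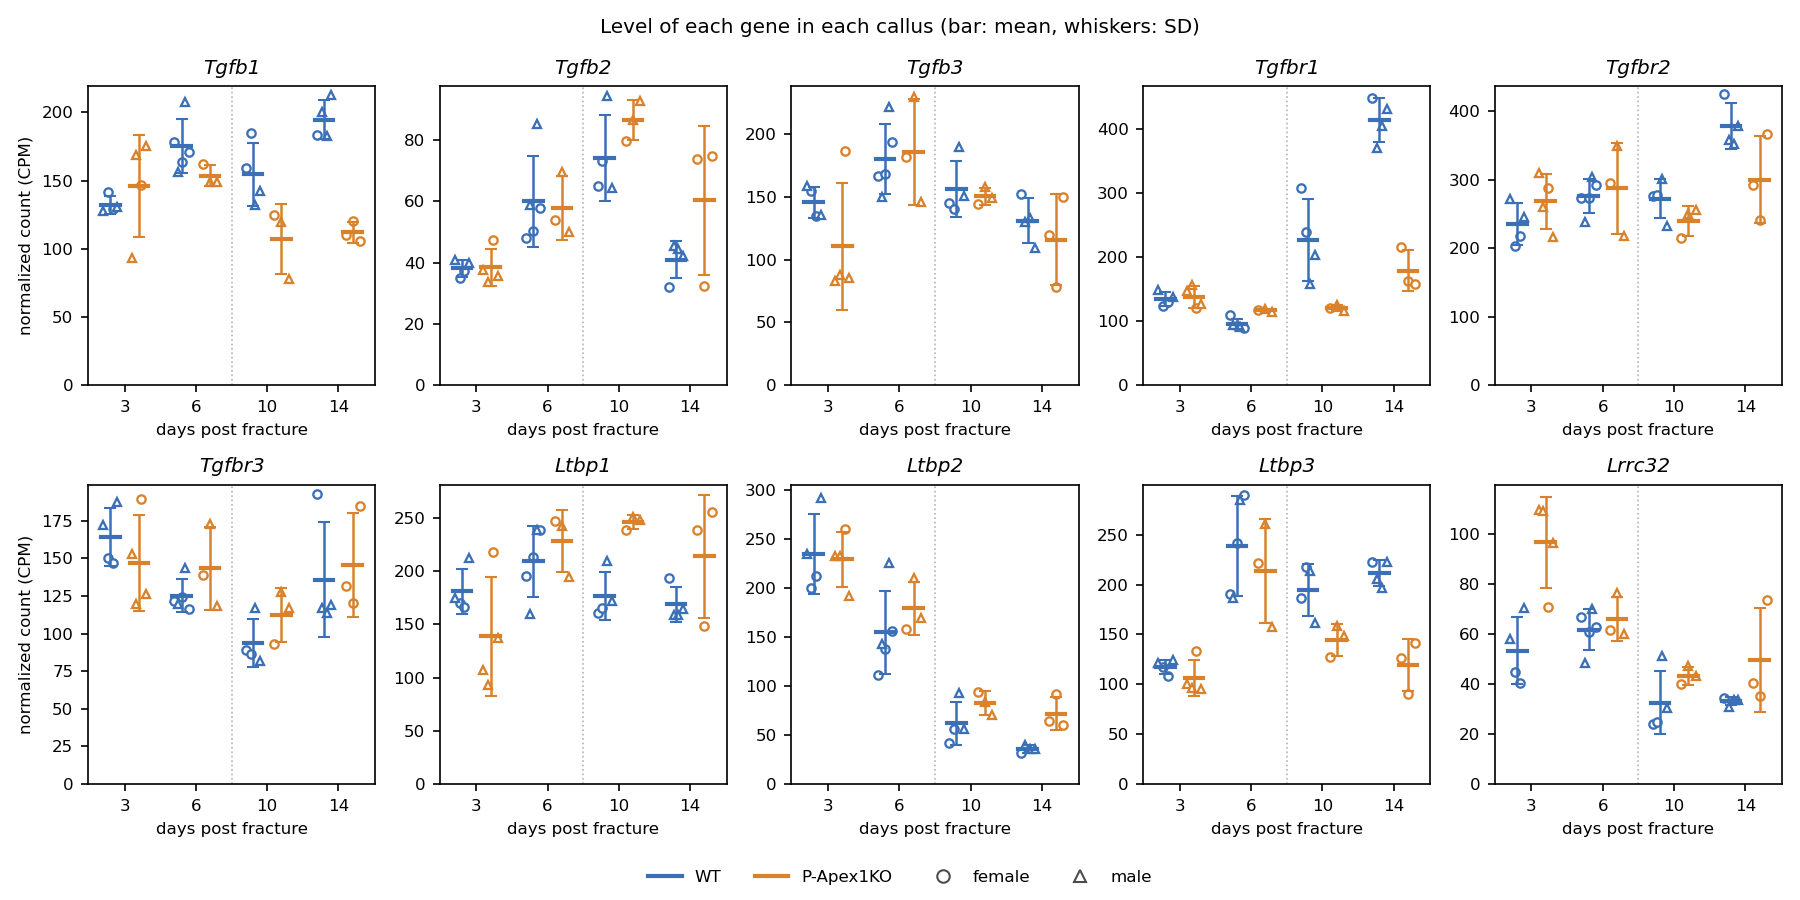
Normalized count (CPM, vertical axis) of each of the 10 genes in each of the 30 mice by days post fracture (horizontal axis), with means as bars, SD as whiskers, circles for females and triangles for males; the dotted line marks where the sample names change. Tgfbr1 in WT reaches 371 to 449 CPM at 14-dpf, above the 158 to 216 CPM of the P-Apex1KO mice.

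Tgfbr1 (ENSMUSG00000007613, chromosome 4 from 47353134 to 47414931), the type I receptor kinase that phosphorylates SMAD2 and SMAD3, differed most in P-Apex1KO among the genes found lower. WT mice had 449, 371, 405 and 432 CPM at 14-dpf and P-Apex1KO mice 216, 163 and 158 CPM. The highest P-Apex1KO mouse lay well below the lowest WT mouse. On the log2 scale the difference was -1.31 (SE 0.17, edgeR adjusted p = 0.00356), -1.18 without sex and -1.42 with the shared sex effect, and it passed in all 6 fits that could leave out 1 mouse.

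At 10-dpf the levels of Tgfbr1 were 308, 239, 157 and 203 CPM in WT and 121, 125 and 116 CPM in P-Apex1KO. The WT mice were spread widely, from replicate 3 to replicate 1, while the P-Apex1KO mice lay close together below all of them. Here the difference was -0.80 on the log2 scale (SE 0.16, adjusted p = 0.0305). This call was lost in 5 of the 7 fits that left out a mouse: P-Apex1KO replicate 1 (adjusted p = 0.184) or 3 (0.07), or WT replicate 1 (0.0663), 2 (0.0798) or 4 (0.0667).

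At 6-dpf the direction of Tgfbr1 was the opposite, with 109, 93.8, 92.8, 91.3 and 88.5 CPM in WT and 117, 118 and 115 CPM in P-Apex1KO. The P-Apex1KO mice lay above all WT mice by a small margin. The log2 fold change of 0.33 (SE 0.09, adjusted p = 0.0477) sat just inside the threshold and passed in 1 of 8 fits that left out a mouse. With all mice it was lost in 4 of 9 other settings: DESeq2's size factors (adjusted p = 0.0524), no filter (0.0511), all 30 samples in 1 model (0.133) and a replicate block in place of sex (0.236). At 3-dpf the groups overlapped, with 149, 124, 129 and 138 CPM in WT and 147, 156, 120 and 127 CPM in the libraries labelled P-Apex1KO (adjusted p = 0.972).

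In time, Tgfbr1 in WT fell by 0.53 on the log2 scale from 3- to 6-dpf (SE 0.08, edgeR adjusted p = 0.00023). From 10- to 14-dpf in WT it rose by 0.95 on the log2 scale (SE 0.15, adjusted p = 0.00145), a step in which 6 of 6 osteoclast markers were higher and 7 of 7 cartilage markers lower. In P-Apex1KO the same step had a log2 fold change of 0.36 that did not pass (SE 0.19, adjusted p = 0.41). The test of the difference between these steps gave -0.60 and did not pass either (SE 0.25, adjusted p = 0.329), so a different course in the genotypes was not shown. The levels at 6- and 10-dpf were not tested against each other, because the sample names change there, and a batch and the time step cannot be told apart.

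Osteoclast markers were lower where Tgfbr1 was lower, at 10- and 14-dpf, and where Tgfb1 was lower, at 14-dpf. The summed level of the 6 markers at 10-dpf was 4223, 2818, 1718 and 3063 CPM in WT and 863, 1158 and 789 CPM in P-Apex1KO, with 4 of 6 markers past the threshold, all 4 lower. At 14-dpf it was 8299, 7687, 7241 and 7851 CPM in WT and 1832, 1417 and 1009 CPM in P-Apex1KO, with 6 of 6 past the threshold and lower. At both times the groups did not overlap, and the part of osteoclasts in the levels of Tgfb1 and Tgfbr1 was not tested. The 6 osteoblast markers at 14-dpf summed to 4412, 6434, 5830 and 6478 CPM in WT and 3448, 1828 and 2976 CPM in P-Apex1KO, with 3 of 6 lower. At 10-dpf their sums were 7018, 6785, 6226 and 6483 CPM against 4246, 5553 and 3899 CPM, with 4 of 6 lower. Endothelial markers summed at 10-dpf to 716, 691, 616 and 612 CPM in WT and 468, 553 and 524 CPM in P-Apex1KO, with 1 of 5 lower. None of these sums overlapped between genotypes, and the part of osteoblasts and endothelium was not tested.

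Other markers differed at 14-dpf as well. By edgeR 3 of the 6 macrophage markers were higher and 2 lower, the latter including Csf1r. The macrophage sums, 1078, 945, 910 and 959 CPM in WT, did not overlap the lower 794, 849 and 863 CPM of P-Apex1KO. With sex in the model 2 of 4 markers of hypertrophic chondrocytes were higher. The calls for hypertrophic chondrocytes were lost without sex, and 1 of 4 markers of fibrous mesenchyme was lower. The latter 4 summed to 4033, 4417, 4551 and 3592 CPM in WT and 5448, 3280 and 9664 CPM in P-Apex1KO. The same order of P-Apex1KO mice held for Tgfb2, Tgfb3, Tgfbr2, Tgfbr3, Ltbp1, Ltbp3 and Lrrc32, and not for Tgfb1, Tgfbr1 or Ltbp2. How many of all genes share it was not counted, so this order of 3 mice is a description. Col3a1 made up 94.0% of the mean sum of the fibrous mesenchyme markers. The 3 erythroid markers summed to 329, 245, 291 and 270 CPM in WT and 701, 777 and 733 CPM in P-Apex1KO, and the 3 neutrophil markers to 420, 508, 539 and 593 CPM against 902, 1110 and 812 CPM. Neither sum overlapped, and 2 of 3 markers were higher in each list. Of the 4 B cell markers edgeR called 0, with 4 at an unadjusted p under 0.05 and 2 higher by DESeq2, and without sex 4 were higher. The part of these cells in the levels of the 10 genes was not tested.

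**Figure D3:**
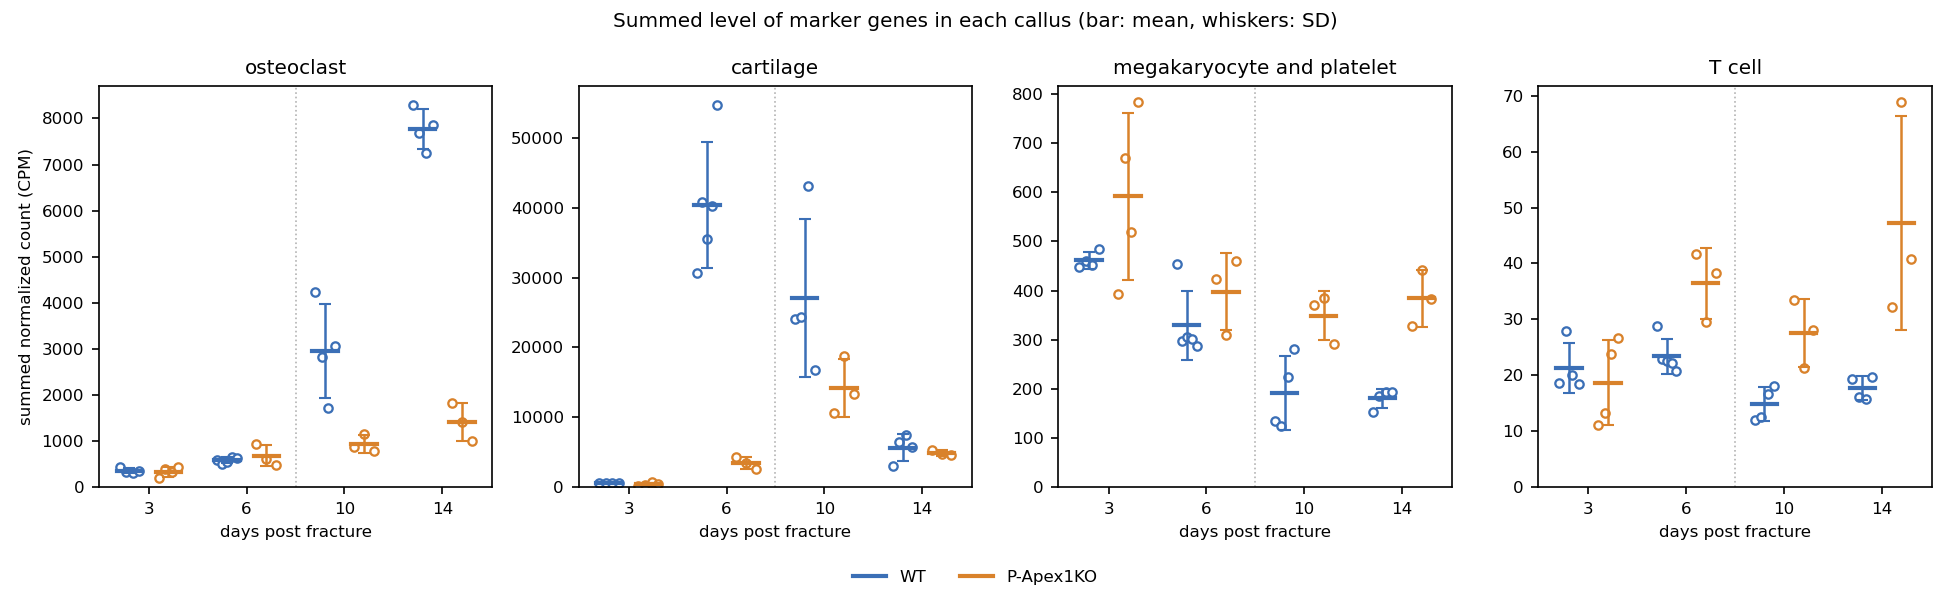
Summed level (CPM, vertical axis) of the markers of osteoclasts, cartilage, megakaryocytes and platelets, and T cells in each mouse by days post fracture (horizontal axis), with means as bars and SD as whiskers. Osteoclast markers in WT at 14-dpf lie between 7241 and 8299 CPM, above the 1009 to 1832 CPM of P-Apex1KO.

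Tgfbr2 (ENSMUSG00000032440, chromosome 9 from 115913361 to 116004800), the type II receptor that binds the free ligand first, passed at no time point between genotypes in the fit of each time point. It was at 426, 359, 352 and 378 CPM in WT at 14-dpf and at 293, 241 and 367 CPM in P-Apex1KO. Replicate 3 of the P-Apex1KO mice lay within the WT range and the others below it, with a log2 fold change of -0.48 (SE 0.20, edgeR adjusted p = 0.175), -0.30 without sex and -0.34 with the shared sex effect. Without that replicate it passed (-0.66, adjusted p = 0.0251). From 10- to 14-dpf Tgfbr2 rose in WT by 0.47 on the log2 scale (SE 0.13, edgeR adjusted p = 0.0312). This rise did not pass without WT replicate 4 of 14-dpf, and some other fits also called fewer of the genes in this step.

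Tgfbr3 (ENSMUSG00000029287, chromosome 5 from 107249402 to 107437623) codes for betaglycan, a co-receptor that presents TGF-beta2 to the type II receptor. It shares 297 exon bases on its own strand with the gene model Gm43422 in the annotation used here. Levels at 14-dpf were 193, 117, 114 and 119 CPM in WT and 132, 121 and 185 CPM in P-Apex1KO. WT replicate 1, the female on which the contrast rests, was the highest of all. The log2 fold change was accordingly -0.38 with sex in the model (adjusted p = 0.305) and 0.14 without it, with 0.08 for the shared sex effect, so its direction cannot be given. Without P-Apex1KO replicate 3 it passed at -0.59 (adjusted p = 0.0147), with sex in the model. In WT it fell by 0.42 on the log2 scale from 3- to 6-dpf (SE 0.14, edgeR adjusted p = 0.0287).

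Among the latent binding proteins, Ltbp1 (ENSMUSG00000001870, chromosome 17 from 75312519 to 75699507) ties the latent complex to fibronectin and fibrillin fibres of the matrix. At 10-dpf it was at 161, 165, 210 and 172 CPM in WT and at 239, 251 and 248 CPM in P-Apex1KO. All 3 P-Apex1KO mice lay above all 4 WT mice. The log2 fold change of 0.46 (SE 0.09, edgeR adjusted p = 0.0294) no longer passed with the shared sex effect (adjusted p = 0.0813) or with all 30 samples in 1 model (adjusted p = 0.143), at sizes of 0.48 and 0.49. With a replicate block in place of sex it was 0.48 and did not pass either (adjusted p = 0.0669). The call was lost in 5 of the 7 fits that left out a mouse: P-Apex1KO replicate 1 (adjusted p = 0.196), 2 (0.0512) or 3 (0.062), or WT replicate 1 (0.0964) or 2 (0.0935). At 14-dpf the groups overlapped, with 193, 159, 158 and 164 CPM in WT and 238, 148 and 255 CPM in P-Apex1KO (log2 fold change 0.17, adjusted p = 0.722). It was 0.38 both without sex and with the shared sex effect, not past the threshold, and passed without P-Apex1KO replicate 2 (0.37, adjusted p = 0.0301).

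Ltbp2 (ENSMUSG00000002020, chromosome 12 from 84829986 to 84923306) is the binding protein that does not bind the latent complex itself and takes part in microfibrils and elastic fibres. At 14-dpf WT mice had 31.3, 40.2, 35.9 and 35.6 CPM and P-Apex1KO mice 63.9, 91.5 and 60.4 CPM. Each P-Apex1KO mouse lay above all WT mice, with replicate 2 the highest. Ltbp2 thus differed by 1.23 on the log2 scale (SE 0.25, edgeR adjusted p = 0.0211), 1.05 without sex and 1.21 with the shared sex effect. The call was lost without WT replicate 2 (adjusted p = 0.0514), 3 (0.0519) or 4 (0.0512), at log2 fold changes of 1.22 to 1.23.

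At 10-dpf Ltbp2 was at 42.3, 56.3, 92.7 and 56.2 CPM in WT and at 93.9, 83.5 and 70.2 CPM in P-Apex1KO. WT replicate 3 lay among the P-Apex1KO mice and the other WT mice below them (log2 fold change 0.42, edgeR adjusted p = 0.381). Leaving out WT replicate 3 gave 0.70, which passed (adjusted p = 0.0406), and leaving out P-Apex1KO replicate 1 gave 0.04 (adjusted p = 0.975), so the size rests on single mice. WT replicate 3 stood apart in its markers. Its sums were 13497 CPM for fibrous mesenchyme, led by Col3a1 (other WT mice 4210 to 6353), and 43145 CPM for cartilage (16783 to 24404). Its osteoclast sum, 1718 CPM, was the lowest of WT, and the part of this make-up was not tested. The level of Ltbp2 fell with time in WT: by 0.62 on the log2 scale from 3- to 6-dpf (SE 0.15, edgeR adjusted p = 0.0063). From 10- to 14-dpf it fell by 0.85 (SE 0.21, adjusted p = 0.0221) in WT, while in P-Apex1KO the value was -0.06 (adjusted p = 0.942). The fall in WT did not pass without WT replicate 4 of 14-dpf, and some other fits also called fewer of the genes in this step. The difference between the 2 steps was 0.79 and did not pass (SE 0.34, adjusted p = 0.35).

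Ltbp3 (ENSMUSG00000024940, chromosome 19 from 5790932 to 5808669) binds the latent complex, and its loss in mice alters cartilage and bone. Levels at 14-dpf were 223, 205, 197 and 223 CPM in WT and 127, 90.3 and 142 CPM in P-Apex1KO. The WT mice lay close together above all P-Apex1KO mice. Ltbp3 thus differed by -0.87 on the log2 scale (SE 0.21, edgeR adjusted p = 0.0377), -0.79 without sex and -0.81 with the shared sex effect. The call was lost with scaling by library size alone (-0.61, adjusted p = 0.0648), and without P-Apex1KO replicate 1 (adjusted p = 0.0566) or WT replicate 2 (0.0851), 3 (0.0761) or 4 (0.0726).

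At 10-dpf Ltbp3 was at 187, 217, 213 and 161 CPM in WT and at 127, 158 and 148 CPM in P-Apex1KO. The highest P-Apex1KO mouse came close to the lowest WT mouse without overlap. The log2 fold change of -0.43 did not pass by edgeR (SE 0.13, adjusted p = 0.0882). It passed by DESeq2 (adjusted p = 0.03), with no filter (0.0291) and with a replicate block in place of sex (-0.50, 0.0371). From 3- to 6-dpf Ltbp3 rose in both genotypes, by a log2 fold change of 0.97 in WT (SE 0.16, edgeR adjusted p = 0.000324) and 1.01 in P-Apex1KO (SE 0.18, adjusted p = 0.00211). The difference between these steps was 0.04 (SE 0.24, adjusted p = 0.978).

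The make-up of the binding proteins per kb of exon is given as a description. From 3- to 14-dpf it crosses the change of sample names, where batch and time cannot be told apart. Ltbp2 held 49.2% ± 2.34 (SD, n = 4) of their sum in WT at 3-dpf and 10.3% ± 1.46 (SD, n = 4) at 14-dpf. In P-Apex1KO at 14-dpf it held 22.1% ± 8.91 (SD, n = 3). Ltbp3 held 52.9% ± 1.23 in WT and 30.5% ± 2.46 in P-Apex1KO at 14-dpf, with the same numbers of mice. The lowest share of Ltbp3 in a WT mouse was 52.1% and the highest in a P-Apex1KO mouse 32.6%, and no test was made of these shares.

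**Figure D4:**
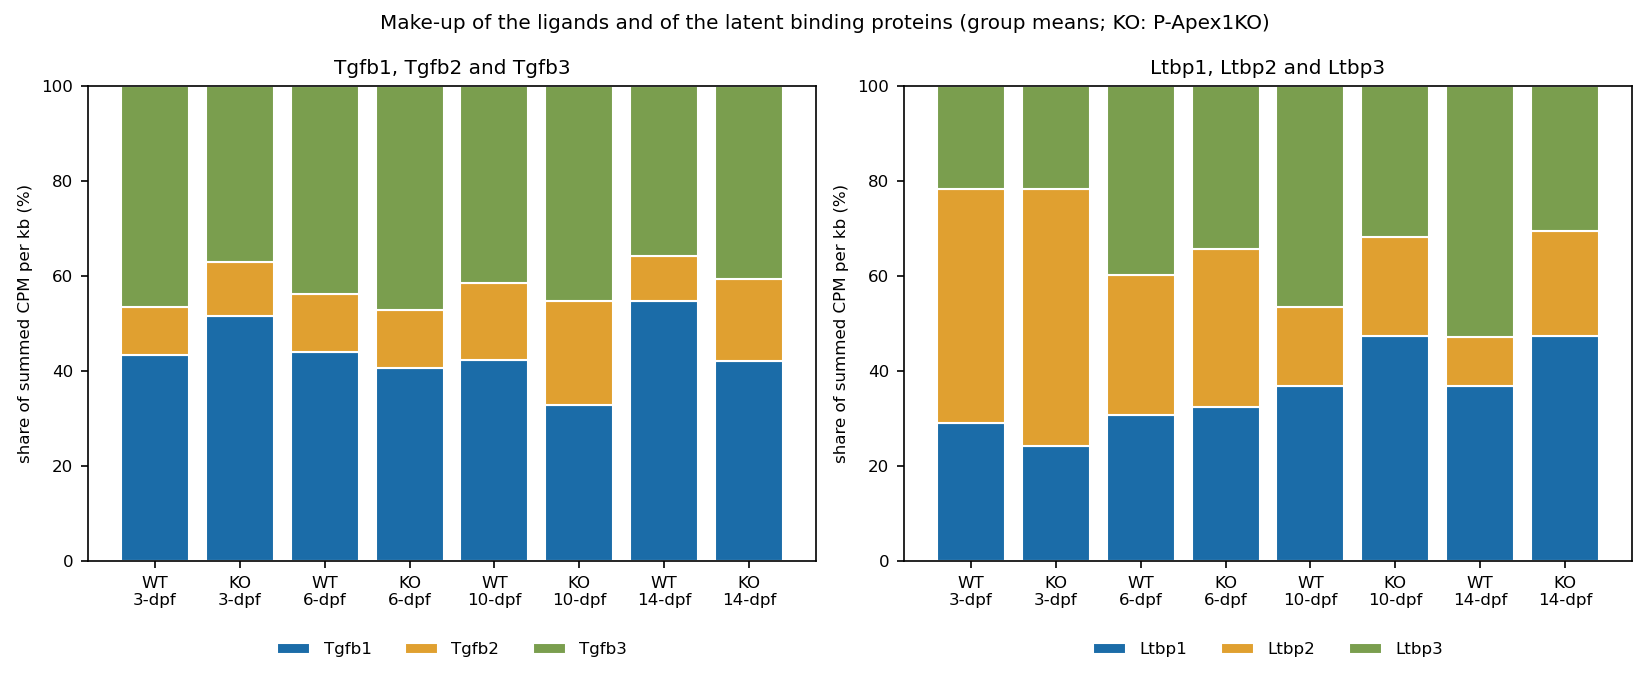
Share of each gene in the summed level per kb of exon (percent, vertical axis) of the ligands (left) and of the latent binding proteins (right), as means of each of the 8 groups. At 14-dpf Ltbp3 holds 52.9% in WT and 30.5% in P-Apex1KO.

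Lrrc32 (ENSMUSG00000090958, chromosome 7 from 98138490 to 98151388) codes for GARP, which docks latent TGF-beta on cell surfaces. At 3-dpf it was at 58.0, 44.6, 40.5 and 70.2 CPM in WT and at 110, 109, 70.7 and 96.5 CPM in the libraries labelled P-Apex1KO. The lowest of these, replicate 3, lay just above the highest WT library, and replicate 4, whose Apex1 level was the highest of the time point, was among the high ones. Replicate 1, the highest for Lrrc32, stood apart in its markers. Its sums were 48.3 CPM for osteoblasts, where the other 7 libraries of 3-dpf had 298 to 547, 315 CPM for neutrophils (990 to 2792) and 42.4 CPM for hypertrophic chondrocytes (151 to 304), and its B cell sum of 5.20 CPM was the lowest. Without this library the difference was 0.70 (edgeR adjusted p = 0.0946), and the part of its make-up in its Lrrc32 level was not tested. Lrrc32 thus differed by 0.72 on the log2 scale (SE 0.09), with an adjusted p of 0.533 by edgeR and 9.47e-07 by DESeq2. Without the filter on low counts edgeR gave 0.0112, and the fits that left out a mouse gave 0.0601 to 1.

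Lrrc32 in the libraries labelled P-Apex1KO fell from 3- to 6-dpf by 0.51 on the log2 scale (SE 0.16, edgeR adjusted p = 0.0481). This call was lost without P-Apex1KO replicate 1, 2 or 4 of 3-dpf, and without P-Apex1KO replicate 1 or 2 of 6-dpf. In WT the same step was 0.24 (SE 0.14, adjusted p = 0.233), and the difference between these steps, -0.74, did not pass (SE 0.21, adjusted p = 0.12). At 14-dpf WT mice had 34.5, 30.9, 33.6 and 33.6 CPM and P-Apex1KO mice 40.5, 35.1 and 73.5 CPM. Replicate 3 of the P-Apex1KO mice stood far above the others, and the difference of 0.55 did not pass (SE 0.39, edgeR adjusted p = 0.408). It was 0.62 without sex (adjusted p = 0.0698) and 0.84 with the shared sex effect (adjusted p = 0.0545). With all 30 samples in 1 model Lrrc32 passed (0.80, adjusted p = 0.0116), and without that replicate the value was 0.15. Replicate 3 also had the highest fibrous mesenchyme sum of 14-dpf, led by Col3a1, at 9664 CPM, and its part was not tested.

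Markers of cells known to carry GARP were read beside Lrrc32. The 5 markers of megakaryocytes and platelets, led by Ppbp, summed at 3-dpf to 447, 460, 452 and 485 CPM in WT and to 394, 670, 520 and 783 CPM in the libraries labelled P-Apex1KO. At 14-dpf they summed to 153, 185, 193 and 193 CPM in WT and 328, 442 and 382 CPM in P-Apex1KO, with 3 of 5 past the threshold and higher. The groups overlapped at 3-dpf and not at 14-dpf. The 5 T cell markers, led by Cd4, summed at 3-dpf to 18.7, 28.0, 20.1 and 18.5 CPM in WT and 11.1, 13.3, 23.8 and 26.6 CPM in the libraries labelled P-Apex1KO, an overlap. At 14-dpf the T cell sums were 19.4, 16.1, 15.7 and 19.7 CPM against 32.3, 68.9 and 40.7 CPM, with 2 of 5 markers higher. The 5 endothelial markers, led by Cdh5, summed at 3-dpf to 498, 391, 344 and 425 CPM in WT and 425, 495, 551 and 415 CPM in the libraries labelled P-Apex1KO, again an overlap. At 14-dpf the endothelial sums were 743, 779, 778 and 815 CPM in WT and lower, without overlap, at 508, 484 and 556 CPM in P-Apex1KO, with 3 of 5 markers past the threshold. The part of these cells in the level of Lrrc32 was not tested.

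Skeletal muscle, led by Acta1, and cartilage were read beside all 10 genes. The 5 muscle markers summed at 3-dpf to 3043, 3678, 2503 and 3052 CPM in WT and to 8384, 5890, 6142 and 3608 CPM in the libraries labelled P-Apex1KO. The lowest of the latter lay within the WT range. By edgeR 0 of the 5 passed at 3-dpf, 5 had an unadjusted p under 0.05 and DESeq2, which also called Lrrc32 there, called 3 higher. At 14-dpf they summed to 2790, 881, 918 and 785 CPM in WT and 1863, 6294 and 6974 CPM in P-Apex1KO, and WT replicate 1 was the highest WT mouse. The cartilage markers summed at 14-dpf to 2962, 6403, 7481 and 5688 CPM in WT and to 5331, 4736 and 4558 CPM in P-Apex1KO, where WT replicate 1 was the lowest of all. With sex in the model 6 of 7 cartilage markers were higher and 1 lower at 14-dpf, and without sex 1 was higher and 1 lower. The part of muscle and cartilage in the levels of the 10 genes was not tested.

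Cartilage and muscle markers also differed at 6-dpf, beside the calls for Tgfbr1 and for the list genes Fn1, Fbn2, Emilin1 and Itgb8. Cartilage markers summed there to 30655, 40808, 35586, 40276 and 54730 CPM in WT and to 4332, 3459 and 2617 CPM in P-Apex1KO, with 7 of 7 lower by edgeR. Muscle markers summed to 3868, 3166, 3133, 2396 and 2178 CPM in WT and to 5127, 11230 and 7447 CPM in P-Apex1KO, with 5 of 5 higher. Neither sum overlapped between genotypes. Of the other markers at 6-dpf, 5 of 6 for osteoblasts and 3 of 4 for hypertrophic chondrocytes were lower. Higher were 5 of 6 for macrophages, 3 of 5 for T cells and 1 of 4 for fibrous mesenchyme. The part of these tissues in the 6-dpf calls was not tested.

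At 10-dpf muscle markers summed to 638, 708, 1458 and 2211 CPM in WT and 4084, 1978 and 3899 CPM in P-Apex1KO. By edgeR 0 of the 5 passed, 5 had an unadjusted p under 0.05, and DESeq2 called 3 higher. For cartilage at 10-dpf the sums were 24040, 24404, 43145 and 16783 CPM against 10590, 18718 and 13296 CPM, where edgeR called 0 of 7, 2 had an unadjusted p under 0.05 and DESeq2 called 2 lower. Both sums overlapped between genotypes, and their part in the 10-dpf calls was not tested.

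Other sums at 10-dpf did not overlap. Markers of hypertrophic chondrocytes summed to 16649, 14467, 16739 and 13475 CPM in WT and 9178, 11772 and 7994 CPM in P-Apex1KO, with 1 of 4 lower by edgeR. Those of megakaryocytes and platelets summed to 135, 125, 225 and 281 CPM against 371, 385 and 291 CPM, where edgeR called 0 of the 4 tested, 4 had an unadjusted p under 0.05 and DESeq2 called 4 higher. T cell markers, with 1 of 5 higher, summed to 12.03, 12.6, 16.7 and 18.2 CPM against 33.4, 21.3 and 28.1 CPM. The neutrophil sums overlapped, and of the 3 markers edgeR called 0, with 3 at an unadjusted p under 0.05 and 3 higher by DESeq2. The fibrous mesenchyme sums overlapped too, with 1 of 4 markers lower by edgeR and 1 higher and 1 lower by DESeq2. The part of these cells in the 10-dpf calls was not tested.

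Promoters are shown for the genes past the threshold at 14-dpf, since Tgfb1, Tgfbr1 and Ltbp3 were lower there together and Ltbp2 was higher. RefSeq promoter windows on GRCm38.p6, of 300 bases from 250 before to 50 after the start, were at hand for 7 of the 10 genes: Tgfb1, Tgfb2, Tgfbr1, Tgfbr2, Ltbp1, Ltbp2 and Ltbp3. Capitals mark matches on either strand to TGANTCA (AP-1), CAGAC (the SMAD box), ACGTG (the core of the hypoxia response element) and GGGCGG (the GC box). The first 3 were searched as motifs of factors that TGF-beta signals through or that APEX1 is known to act on in its redox role, and the GC box as a common promoter element. The windows of Tgfb1 (chr7:25686752-25687051, plus strand), Tgfbr1 (chr4:47352972-47353271, plus strand, the upstream of its pair of windows), Ltbp3 (chr19:5740650-5740949, plus strand) and Ltbp2 (chr12:84876442-84876741, minus strand) read, 5′ to 3′:
Tgfb1: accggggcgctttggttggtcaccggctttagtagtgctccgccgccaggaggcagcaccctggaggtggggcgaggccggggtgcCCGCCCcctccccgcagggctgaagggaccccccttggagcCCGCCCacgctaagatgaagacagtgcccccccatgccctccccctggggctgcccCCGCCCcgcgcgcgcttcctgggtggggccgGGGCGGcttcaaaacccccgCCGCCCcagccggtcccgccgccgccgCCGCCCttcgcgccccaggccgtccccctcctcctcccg
Tgfbr1: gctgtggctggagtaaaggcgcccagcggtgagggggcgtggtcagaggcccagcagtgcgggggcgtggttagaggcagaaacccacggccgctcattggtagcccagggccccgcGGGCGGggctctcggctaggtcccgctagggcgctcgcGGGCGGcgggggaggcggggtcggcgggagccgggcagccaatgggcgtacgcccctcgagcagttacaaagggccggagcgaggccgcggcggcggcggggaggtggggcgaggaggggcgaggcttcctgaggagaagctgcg
Ltbp3: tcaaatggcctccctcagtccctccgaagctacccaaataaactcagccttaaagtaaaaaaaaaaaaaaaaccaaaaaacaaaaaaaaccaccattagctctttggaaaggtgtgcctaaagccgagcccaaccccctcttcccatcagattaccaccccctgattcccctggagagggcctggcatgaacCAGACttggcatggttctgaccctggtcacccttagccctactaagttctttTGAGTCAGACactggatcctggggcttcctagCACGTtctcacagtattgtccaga
Ltbp2: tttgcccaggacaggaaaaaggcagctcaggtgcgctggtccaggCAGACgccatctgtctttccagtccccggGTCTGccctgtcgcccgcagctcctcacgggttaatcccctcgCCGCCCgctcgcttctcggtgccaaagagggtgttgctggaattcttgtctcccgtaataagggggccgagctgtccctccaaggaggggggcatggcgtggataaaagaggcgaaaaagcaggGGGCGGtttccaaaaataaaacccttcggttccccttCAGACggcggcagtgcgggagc
The Tgfb1 window held 6 GC boxes and 77% G and C, and that of Tgfbr1 2 GC boxes and 74.7%, where the median window had 52.7%. Neither held a match to the other 3 motifs. The second Tgfbr1 window (chr4:47385966-47386265, plus strand), not shown, had 52% G and C, 1 SMAD box and no match to the others. The Ltbp3 window, at 48% G and C, held 1 AP-1 motif that overlaps 1 of its 2 SMAD boxes, and 1 hypoxia response core. The Ltbp2 window held 3 SMAD boxes and 2 GC boxes. Of all 32851 windows, 7.81% held the AP-1 motif, 49.6% the SMAD box, 19.6% the hypoxia response core and 35.7% the GC box. A match is a description of letters and not a binding site.

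Across time, edgeR found 5 of the 10 genes changed from 3- to 6-dpf in WT, 2 higher (Tgfb2, Ltbp3) and 3 lower (Tgfbr1, Tgfbr3, Ltbp2), where 30.5% of 20468 genes passed in either direction. In P-Apex1KO it found 5, 4 higher (Tgfb2, Tgfb3, Ltbp1, Ltbp3) and 1 lower (Lrrc32), against 14% of genes. From 10- to 14-dpf 4 passed in WT, Tgfbr1 and Tgfbr2 higher and Tgfb2 and Ltbp2 lower, against 11.1% of 19705 genes. The count for this step was 1 without WT replicate 4 of 14-dpf. It was 2 without WT replicate 3 of 10-dpf, without WT replicate 1 of 14-dpf or with no filter. In P-Apex1KO the count by edgeR for that step was 0, with 0 at an unadjusted p under 0.05 and 0 by DESeq2, against 0.259% of genes. The genotype difference changed between 3- and 6-dpf for 0 of the 10 by edgeR (2 at an unadjusted p under 0.05, Tgfbr1 and Lrrc32, and 1 by DESeq2), against 1.3% of genes. Between 10- and 14-dpf it changed for 0 by edgeR (2 at an unadjusted p under 0.05, Tgfbr1 and Ltbp2, and 0 by DESeq2), against 0.436%. A step that passed in 1 genotype and not in the other is therefore not shown to differ between them.

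Markers of cell types changed in the same steps. From 3- to 6-dpf in WT edgeR called 7 of 7 cartilage markers higher (median 8.99 on the log2 scale), along with 5 of 5 endothelial, 5 of 6 osteoblast, 2 of 6 osteoclast and 4 of 4 hypertrophic markers, while 6 of 6 macrophage markers were lower. Also lower were 1 of 5 markers of megakaryocytes and platelets and 1 of 4 of fibrous mesenchyme. In P-Apex1KO the higher ones were 2 of 6 osteoclast, 1 of 6 osteoblast, 3 of 4 hypertrophic, 6 of 7 cartilage and 1 of 5 T cell markers. Lower were 4 of 6 macrophage markers, 1 of 5 for megakaryocytes and platelets and 1 of 4 for fibrous mesenchyme. From 10- to 14-dpf in WT 6 of 6 osteoclast markers were higher (median 1.39), 2 of 6 for macrophages, 1 of 5 for endothelium and 1 of 4 for fibrous mesenchyme. Lower in that step were 7 of 7 for cartilage (median -3.21) and 3 of 4 for hypertrophic chondrocytes. In P-Apex1KO 1 of 7 for cartilage and 1 of 6 for osteoblasts were lower, and for osteoclasts edgeR called 0 of 6, with 0 at an unadjusted p under 0.05 and 0 by DESeq2. The part of these cells in the time steps of the 10 genes was not tested.

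In P-Apex1KO from 3- to 6-dpf, Tgfb2 rose by a log2 fold change of 0.59 (SE 0.17, edgeR adjusted p = 0.0288) and Tgfb3 by 0.77 (SE 0.24, adjusted p = 0.0442). Ltbp1 rose by 0.73 (SE 0.21, adjusted p = 0.0351). Leaving out P-Apex1KO replicate 1, 2 or 4 of 3-dpf or replicate 1 or 2 of 6-dpf left 1 of the 5 calls, Ltbp3. At 3-dpf these libraries are named by their labels. Apex1 itself had a log2 fold change of -0.82 in this step (edgeR adjusted p = 0.00487) and of -0.35 in WT (adjusted p = 0.0746). The difference between these steps for Apex1, -0.46, did not pass (adjusted p = 0.398).

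Ordered by mean level over the 8 groups, with replicate SD, Tgfbr1 was highest in WT at 14-dpf (414 ± 34.0 CPM, n = 4), then in WT at 10-dpf (227 ± 63.6 CPM, n = 4) and P-Apex1KO at 14-dpf (179 ± 32.2 CPM, n = 3). Of its 7 pairs of neighbours, 4 differed by more than the larger SD, and the lowest group was WT at 6-dpf (95.0 ± 7.98 CPM, n = 5). Ltbp2 ran from WT at 3-dpf (235 ± 40.6 CPM, n = 4) down to WT at 14-dpf (35.8 ± 3.63 CPM, n = 4), with 3 of 7 neighbours apart by more than the larger SD. Tgfb1 was highest in WT at 14-dpf (195 ± 14.4 CPM, n = 4) and lowest in P-Apex1KO at 10-dpf (107 ± 25.8 CPM, n = 3), with 1 pair of neighbours apart. For Tgfb3 and Ltbp1 no pair of neighbours was apart in this sense, for Tgfb2, Tgfbr2, Tgfbr3 and Ltbp3 1 pair was, and for Lrrc32 2 pairs were. Groups of 3- and 6-dpf may differ from those of 10- and 14-dpf by batch, which cannot be told apart from time, so the order across that line is a description.

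Per kb of exon, the scale on which genes can be set beside each other, Ltbp2 led in WT at 3-dpf (28.7 ± 4.96 CPM per kb, n = 4), next to Tgfb3 (27.9 ± 2.39 CPM per kb). These did not differ beyond their spread, and Tgfb2 was lowest (6.10 ± 0.436 CPM per kb). In WT at 14-dpf Tgfbr1 led (62.5 ± 5.14 CPM per kb, n = 4), followed by Tgfbr2 (43.1 ± 3.80 CPM per kb) and Tgfb1 (38.3 ± 2.84 CPM per kb), and Ltbp2 was lowest (4.37 ± 0.444 CPM per kb). In P-Apex1KO at 14-dpf Tgfbr2 led (34.1 ± 7.24 CPM per kb, n = 3) and Tgfbr1 came next (27.0 ± 4.87 CPM per kb), with a gap smaller than the larger SD.

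Of the other genes of the pathway, 21 act in latency and activation, 17 as co-receptors or in signal relay and 19 are response genes; all were tested at each time point. At 3-dpf edgeR called 0 in each list (0, 1 and 2 at an unadjusted p under 0.05) and DESeq2 0 in each. At 6-dpf 5 of the 21 latency genes passed, 2 higher and 3 lower, at a median of -0.17 on the log2 scale. At 10-dpf 1 was higher and 3 lower (median 0.10), and at 14-dpf 5 were lower by edgeR, with none higher (median -0.16). Without sex 2 of the latency genes were higher and 6 lower at 14-dpf. Of the 17 co-receptor and relay genes 2, 1 and 5 were lower at 6-, 10- and 14-dpf and none higher by edgeR, with medians of -0.15, -0.22 and -0.41. Without sex these were 3, 1 and 11 lower, and 1 was higher at 6-dpf. The fit without sex called 13.8%, 4.10% and 37.2% of all genes at these times, against 10.9%, 6.46% and 11.3% with sex. Of the 19 response genes 1 was lower at 6-dpf (median -0.13), 1 higher and 2 lower at 10-dpf (median 0.05), and 3 lower at 14-dpf (median 0.25), where 4 were higher and 7 lower without sex in the model.

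**Figure D5:**
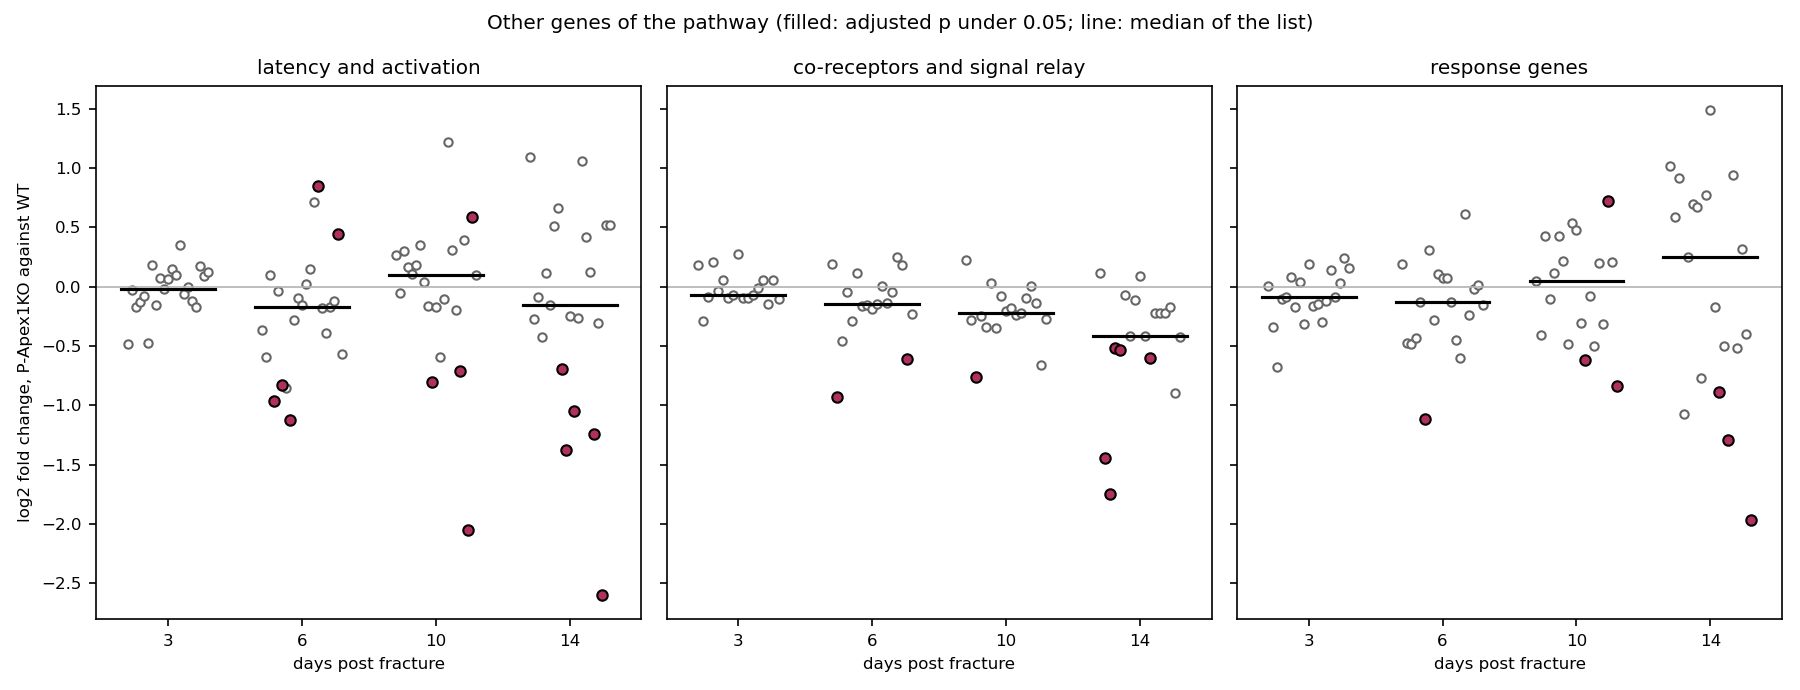
Log2 fold change of P-Apex1KO against WT (vertical axis) for each gene of 3 lists at each time point (horizontal axis), with lines at the medians; filled points have an edgeR adjusted p under 0.05. At 14-dpf, with sex in the model, all 5, 5 and 3 filled points of the lists lie below 0.

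Among the latency genes at 6-dpf, Fn1, whose fibronectin fibres anchor the binding proteins, had a mean of 13749 ± 3152 CPM (SD, n = 5) in WT against 6232 ± 1426 CPM (SD, n = 3) with Apex1 deleted (log2 fold change -1.12, edgeR adjusted p = 0.0234). The microfibril gene Fbn2 and Emilin1, whose product restrains the processing of the TGF-beta1 precursor, were lower too, at log2 fold changes of -0.83 and -0.97 (adjusted p = 0.0314 and 0.0279). Itgb8, a subunit of an integrin that activates latent TGF-beta, was higher at 0.84 (adjusted p = 0.00426). Groups did not overlap for any of these 4. All 4 calls were lost with a replicate block in place of sex, and also in a fit that left out a mouse.

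The protease gene Mmp9, whose product can cleave the latent complex and which osteoclasts express strongly, averaged 2432 ± 731 CPM (SD, n = 4) in WT against 536 ± 188 CPM (SD, n = 3) in P-Apex1KO at 10-dpf (log2 fold change -2.05, edgeR adjusted p = 0.0173). At 14-dpf it was at 4919 ± 279 CPM in WT and 831 ± 301 CPM in P-Apex1KO (log2 fold change -2.60, adjusted p = 0.00308). The integrin gene Itgav was lower at both times, by log2 fold changes of -0.80 and -1.37 (adjusted p = 0.0273 and 0.0121), as was the protease gene Mmp14, by -0.71 and -1.24 (adjusted p = 0.0261 and 0.0332). Itgb3, which pairs with Itgav, was lower at 14-dpf (-1.04, adjusted p = 0.00353). Nrros, which docks latent TGF-beta on macrophages and microglia as GARP does on other cells, was higher at 10-dpf (0.58, adjusted p = 0.0142). Macrophage markers differed there too, with 3 of 6 higher by edgeR, 4 higher and 1 lower by DESeq2 and 1 higher without sex, at a median of 0.64 on the log2 scale. Their sums overlapped between genotypes, and the part of macrophages in the level of Nrros was not tested. The 10-dpf calls for Mmp9, Itgav, Mmp14 and Nrros were all lost in a fit that left out a mouse. At 14-dpf some such fits also called fewer of the latency genes.

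Of the co-receptor and relay genes, Bambi, which codes for a decoy receptor without a kinase, was lower at 6-dpf (-0.93, edgeR adjusted p = 0.0118) and at 14-dpf (-1.44, adjusted p = 0.00557). Tgif2, a corepressor gene, was lower at 6-dpf (-0.61, adjusted p = 0.0404). Cd109, whose product binds TGF-beta and dampens its signal, was lower at 10-dpf (-0.76, adjusted p = 0.0254) and 14-dpf (-1.75, adjusted p = 0.00554). Its 10-dpf call was lost in a fit that left out a mouse. At 14-dpf Smurf1, a ubiquitin ligase gene, and Fkbp1a, whose product binds the type I receptor, were lower as well (-0.60 and -0.54, adjusted p = 0.0242 and 0.0448). Some fits that left out a mouse called fewer genes of this list at 6- and 14-dpf, as did scaling by library size alone at 14-dpf.

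Smad7, the inhibitory SMAD gene that the pathway itself induces, was lower at 10-dpf (-0.62, edgeR adjusted p = 0.0126) and 14-dpf (-0.89, adjusted p = 0.00204). At 14-dpf its mean was 71.2 ± 3.35 CPM (SD, n = 4) in WT against 35.2 ± 0.814 CPM (SD, n = 3) in P-Apex1KO. The matrix gene Tnc was lower at the same times (-0.83 and -1.96, adjusted p = 0.0339 and 0.000883), and Tgfbi, named for its induction by TGF-beta, was higher at 10-dpf (0.72, adjusted p = 0.039). The groups overlapped for Tgfbi, and without sex neither its call nor that of Tnc at 10-dpf passed, at 0.83 and -0.94. Snai2, a transcription factor gene, was lower at 14-dpf (-1.29, adjusted p = 0.00532), and Loxl2, a collagen crosslinking enzyme gene, at 6-dpf (-1.11, adjusted p = 0.0145). A fit that left out a mouse of 10-dpf lost the calls for Smad7, Tnc and Tgfbi there, and another, of 6-dpf, that for Loxl2.

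Likeness between genes was measured by Pearson's r of log2 CPM, over the 16 samples of 3- and 6-dpf and over the 14 of 10- and 14-dpf, taking the lower r, among the 13794 genes that code for proteins and average 1 CPM or more. Samples of a group share genotype and time, so r is a description. Tgfb1 was most like Mmp9 (0.940), Sf3a2 (0.900) and Cnn2 (0.876), and Tgfb2 most like Thbs2 (0.920), Aebp1 (0.919) and Igfbp7 (0.913). Tgfb3 was closest to Dact3 (0.845), Zfp521 (0.833) and Hoxa10 (0.832), and Lrrc32 to Fgf2 (0.803), Thbd (0.799) and Hk2 (0.776). The nearest gene was Shtn1 for Tgfbr1 (0.947), Ptprb for Tgfbr2 (0.864), Plpp3 for Tgfbr3 (0.808), Sesn3 for Ltbp1 (0.853), Nsun3 for Ltbp2 (0.816) and Scarf2 for Ltbp3 (0.977).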

How the data were processed

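The authors depleted rRNA and beta globin transcripts from total RNA, made stranded libraries (Illumina Stranded Total RNA Prep with Ribo-Zero Plus), sequenced them, aligned the reads with STAR 2.7.0d to mm39 and ran featureCounts on Ensembl genes for reads that map once, in reverse orientation. The deposited values are raw counts per gene and sample, whole numbers without normalization, 1 column per mouse. The reads were not analysed here. Symbols, positions and exon lengths came from GENCODE M39 on GRCm39, which holds 54749 of the 55416 gene IDs; the other 667 stayed in the tests. The genes and lists were chosen with earlier results of these data known.

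Each time point was fitted alone with edgeR 4.0.16 (R 4.3.3). Genes were filtered by filterByExpr, libraries were scaled by TMM, and genotype was tested by the robust quasi-likelihood F test beside a term for sex. P-values were adjusted by Benjamini-Hochberg across every gene of the fit, with 0.05 as the threshold. Fits of 3- with 6-dpf and of 10- with 14-dpf (4 groups and sex) tested time steps and the change of the genotype difference. Standard errors are the absolute log2 fold change over the square root of F. Levels per kb divide CPM by the exon length. Log2 CPM for the likeness used a prior count of 2. The methods were tested on simulated data. Tables and figures were made in Python 3.11.15.

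Genes were named by a rule: Apex1 and the 10 genes at every time point, up to 4 genes past the threshold with the largest change per list and time point, the 3 genes most like Tgfb1, Tgfb2, Tgfb3 and Lrrc32 and the 1 most like each other gene, and for markers the most abundant gene and those at 0. Alternatives were DESeq2 1.42.0, no sex term, TMM replaced by the size factors of DESeq2 or by library size, no filter or at least 10 counts in every sample, all 30 samples in 1 model, the replicate number as a block in place of sex, and each mouse left out in turn. A sex effect shared by both time points of a fit was added after the data were seen.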

Additional observations from a re-analysis of the deposited data

Results flagged for a closer look

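Of 55 groups of 4 or 5 mice examined, over the 10 genes and Apex1, 6 held a mouse far from the others of its group. A highest or lowest mouse was flagged if its gap to the next, divided by the range of the group, exceeded Dixon's 95% critical value, which by its definition flags about 1 in 20 groups of normal values by chance. The groups share mice across genes and are not independent. Tgfb2 in WT at 6-dpf was at 85.2 CPM in replicate 4. Tgfbr1 in WT at 6-dpf was at 109 CPM in replicate 1. At 3-dpf replicate 3 of the libraries labelled P-Apex1KO, the female of its group, had 186 CPM of Tgfb3 and 133 CPM of Ltbp3, above the males. In WT at 3-dpf the females had 154 and 134 CPM of Tgfb3 and the males 158 and 135 CPM. For Ltbp3 the WT females had 118 and 108 CPM and the males 121 and 124 CPM. Replicate 3 also had the highest cartilage sum of 3-dpf, 733 CPM, whose part was not tested. At 14-dpf WT replicate 1, the female of its group, had 193 CPM of Tgfbr3 and 193 CPM of Ltbp1, above the males.

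The genotype difference was tested for a change between time points in 136 cases, over the genes named here, and 2 passed edgeR's threshold. Over all genes tested, 1.3% passed between 3- and 6-dpf and 0.436% between 10- and 14-dpf. The 2 that passed, Bambi and Loxl2, had been named for passing between genotypes at the later time point of the pair. They are therefore given as a description. For Bambi the log2 difference at 14-dpf minus that at 10-dpf was -1.19. For Loxl2 the log2 difference at 6-dpf minus that at 3-dpf was -1.24.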

How the results depend on the processing

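Over the settings run with all mice, 570 values kept their direction and their side of the threshold, 28 were weaker, 14 stronger and 18 changed sign; over the fits that left out a mouse these were 385, 88, 9 and 15. The cause was not tested for any change. Scaling by library size alone moved the median over all genes (log2) to 0.20 at 6-dpf and 0.31 at 14-dpf, to -0.27 for 6- against 3-dpf in WT, to 0.25 and 0.16 for the changes of the genotype difference and to 0.10 for 14- against 10-dpf in P-Apex1KO. The lower share of the genotype calls went with it from 51.4 to 22.6% at 6-dpf, 53.3 to 35.3% at 10-dpf and 62.2 to 29.0% at 14-dpf. The fit at 14-dpf without WT replicate 1 could not be fitted with sex in the model.

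The 10 genes: at 3-dpf DESeq2 and no filter each called 1 (edgeR 0). At 6-dpf, in place of 1, DESeq2's size factors gave 0, no filter 0, all 30 samples 0, the replicate block 0 and library size alone 3. Instead of 2 at 10-dpf, DESeq2 gave 4 and the shared sex effect, added after the data were seen, 1. Instead of 4 at 14-dpf, library size alone gave 2. For 6- against 3-dpf in P-Apex1KO (5), no sex term gave 3, no filter 1, all 30 samples 3 and the replicate block 2. For 14- against 10-dpf in WT (4) no filter gave 2, and for the change from 3- to 6-dpf (0) DESeq2 gave 1.

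The share of all genes called moved with the setting. At 3-dpf it was 0% by edgeR, 0.588% by DESeq2 and 0.0118% with no filter. At 6-dpf it was 10.9%, and 10.87% with DESeq2's size factors, 6.61% with no filter, 14.9% with all 30 samples, 3.14% with the replicate block, 17.7% with library size alone, 17.2% by DESeq2 and 13.8% with no sex term. The 10-dpf share was 6.46%, against 12.8% by DESeq2, 7.99% with the shared sex effect, 4.10% with no sex term, 5.54% with no filter and 7.77% with all 30 samples. For 14-dpf it was 11.3%, against 13.1% with library size alone, 17.9% by DESeq2, 15.8% with the replicate block, 37.2% with no sex term, 29.98% with all 30 samples and 30.1% with the shared sex effect. For 6- against 3-dpf in P-Apex1KO it was 14.0%, against 13.8% with no sex term, 6.07% with no filter, 16.7% with all 30 samples and 7.28% with the replicate block. With no filter 14- against 10-dpf in WT gave 5.26% in place of 11.1%, and DESeq2 gave 3.97% in place of 1.30% for the change from 3- to 6-dpf.

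Leaving out each mouse gave 0 to 1 of the 10 genes at 6-dpf, 0 to 4 at 10-dpf, 2 to 6 at 14-dpf, 1 to 5 for 6- against 3-dpf in P-Apex1KO, 1 to 5 for 14- against 10-dpf in WT, and 0 to 1 for each change of the genotype difference. At 6-dpf Tgfbr1 passed without WT replicate 1 (adjusted p = 0.0199) and failed without P-Apex1KO replicate 1 (0.166), 2 (0.0799) or 3 (0.0769) or WT replicate 2 (0.112), 3 (0.101), 4 (0.141) or 5 (0.0679). At 10-dpf 0 passed by edgeR without P-Apex1KO replicate 1 or 3 or WT replicate 1 or 2; without P-Apex1KO replicate 2 the 2 were Tgfb1 and Tgfbr1, without WT replicate 3 the 4 were Tgfbr1, Ltbp1, Ltbp2 and Lrrc32, and without WT replicate 4 the 3 were Tgfbr2, Ltbp1 and Ltbp3. Ltbp1 there failed without P-Apex1KO replicate 1 (0.196), 2 (0.0512) or 3 (0.062) or WT replicate 1 (0.0964) or 2 (0.0935). At 14-dpf 6 passed without P-Apex1KO replicate 2 or 3, 3 without replicate 1, and 2 (Tgfb1, Tgfbr1) without WT replicate 2, 3 or 4. For 14- against 10-dpf in WT, 1 passed (Tgfbr1) without WT replicate 4 of 14-dpf, and 2 without WT replicate 3 of 10-dpf or WT replicate 1 of 14-dpf. The change from 3- to 6-dpf called Lrrc32 without WT replicate 2 of 6-dpf, and that from 10- to 14-dpf Tgfb2 without P-Apex1KO replicate 2 of 14-dpf.

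Latency genes: at 6-dpf (5) DESeq2 gave 9, library size alone 8 and the replicate block 0, and at 14-dpf (5) no sex term gave 8 and all 30 samples 9; each mouse left out gave 0 to 6, 0 to 7 and 3 to 10 at 6-, 10- and 14-dpf. Co-receptor and relay genes: at 6-dpf (2) no sex term and all 30 samples gave 4 and the replicate block 1; at 10-dpf (1) DESeq2, no filter and all 30 samples gave 3; at 14-dpf (5) no sex term gave 11, library size alone 2, and all 30 samples and the shared sex effect 8; each mouse left out gave 1 to 4, 0 to 6 and 2 to 7. Response genes: at 6-dpf (1) DESeq2, no sex term and library size alone gave 3, and at least 10 counts, all 30 samples and the shared sex effect 2; at 10-dpf (3) DESeq2 gave 6, no sex term 1 and no filter 5; at 14-dpf (3) DESeq2 gave 5, no sex term 11, all 30 samples 13, the replicate block 8 and the shared sex effect 12; each mouse left out gave 0 to 2, 0 to 8 and 3 to 13.

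Signs changed for log2 fold changes that were not past the threshold. Library size alone gave 0.0239 for Tgfb1, 0.0827 for Tgfb2 and 0.0669 for Ltbp3 at 6-dpf, -0.0248 for Tgfb2 at 3-dpf and 0.0116 for Tgfb3 at 10-dpf. The replicate block gave -0.0008 for Tgfb2 and 0.0153 for Tgfbr1 at 3-dpf, 0.143 for Tgfb2 and 0.0458 for Ltbp3 at 6-dpf and 0.0887 for Tgfbr3 at 14-dpf. All 30 samples gave -0.0175 for Tgfb2 and 0.0423 for Tgfbr1 at 3-dpf and 0.0883 for Tgfbr3 at 14-dpf, the shared sex effect -0.0088, 0.0028 and 0.0797 for these, and no sex term 0.0201 for Tgfbr1 and 0.1424 for Tgfbr3. Each mouse left out gave -0.172 to 0.0928 for Tgfb2, -0.0757 to 0.0126 for Tgfbr1 and -0.26 to 0.10 for Ltbp2 at 3-dpf, -0.24 to 0.0535 for Tgfb2, -0.11 to 0.19 for Tgfb3, -0.0777 to 0.24 for Tgfbr2, -0.30 to 0.0373 for Ltbp3 and -0.0064 to 0.23 for Lrrc32 at 6-dpf, and -0.15 to 0.0374 for Tgfb3 at 10-dpf.

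Of 13 pairs of mice with the same replicate number, 5 had a correlation over 0.1 (lowest -0.25, highest 0.40). The main fits therefore did not use the numbers as paired mice. The setting with a replicate block does match mice by number. A call gained or lost with it shows a dependence on the model and is not a test of paired mice. Depth does not limit these genes, whose lowest count was 444.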
